A study of Mus musculus with 6 samples.

Results

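The genes that build cholesterol and fatty acids were followed through the maturation of mouse natural killer (NK) cells, the innate lymphocytes that kill infected and transformed cells. The group was chosen by name: 32 genes of sterol and fatty acid synthesis and their regulators, all 32 of them among the 18193 genes measured, on 76 probe sets of 34945 that carry 1 gene symbol. NK1.1+ cells were sorted by flow cytometry from the spleens of RAG-/- mice, which lack mature T and B cells, by surface CD27 and CD11b. The 3 subsets are CD27+CD11b-, the double-positive CD27+CD11b+, and CD27-CD11b+. CD11b is an integrin chain encoded by Itgam and CD27 a co-stimulatory receptor, and NK cells are commonly placed in this order from least to most mature. No cells were treated, the RAG deficiency is shared by all groups, and the labels give no age, sex or which RAG gene was deleted. Each subset has 2 arrays, 6 in all, described by the submitters as independent replicates. Whether the 2 came from different mice is not stated, and p-values then reflect only how far these samples spread, possibly for technical reasons.

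Cholesterol synthesis starts from acetyl-CoA and passes through mevalonate and squalene to a chain of sterol intermediates. Its enzymes are under the control of SREBP transcription factors, which are held in the endoplasmic reticulum by the escort protein SCAP and the INSIG anchors while sterols are plentiful, and released to the nucleus when sterols run low. Fatty acid synthesis shares acetyl-CoA and the SREBP control, while surplus sterol activates the liver X receptors, which induce the exporters ABCA1 and ABCG1. In lymphocytes these pathways are known for supplying membrane to dividing cells, and SREBP activity has been tied to the metabolic response of activated NK cells.

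The promoters of 24 of the 32 genes were found in the RefSeq table of GRCm38.p6, as 300 bases from 250 before to 50 after each start site. Those of Fdps, Sqle, Abcg1, Scd2, Fdft1, Stard4, Scd1 and Fads1 were not used here. The letters TCACNCCAC, a sterol regulatory element to which SREBPs bind, were in the promoter of Hmgcs1 alone among the 24 genes, against 1.44% of all 27025 genes with a promoter. CCAAT, the NF-Y box that often accompanies SREBP sites, was present for 19 of 24 against 41.1% of all genes, and the Sp1 box GGGCGG for 20 of 24 against 38.2%. The E-box CACGTG was present for 6 of 24 (Abca1, Dhcr7, Hsd17b7, Insig1, Sc5d and Scap) against 8.09%. All 4 motifs were searched on both strands, none of them overlapped another in the promoters shown, and a match describes letters and not a bound site. Shown are Hmgcs1 as the holder of the sterol element, Msmo1 as the gene that passed the test between subsets, Abca1 as the exporter with the largest difference, and Hsd17b7 as the enzyme with the most negative outer difference, which did not pass. Capitals mark the matches, and each sequence runs 5′ to 3′ on the gene's strand.
Hmgcs1, chr13:119690101-119690400, plus strand: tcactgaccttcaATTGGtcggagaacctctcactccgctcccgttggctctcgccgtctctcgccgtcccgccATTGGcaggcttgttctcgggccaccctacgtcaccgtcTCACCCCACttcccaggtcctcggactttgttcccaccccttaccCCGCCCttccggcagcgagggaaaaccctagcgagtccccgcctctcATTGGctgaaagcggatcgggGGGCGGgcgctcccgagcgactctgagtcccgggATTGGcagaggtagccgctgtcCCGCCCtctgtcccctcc
Msmo1, chr8:64733529-64733828, minus strand: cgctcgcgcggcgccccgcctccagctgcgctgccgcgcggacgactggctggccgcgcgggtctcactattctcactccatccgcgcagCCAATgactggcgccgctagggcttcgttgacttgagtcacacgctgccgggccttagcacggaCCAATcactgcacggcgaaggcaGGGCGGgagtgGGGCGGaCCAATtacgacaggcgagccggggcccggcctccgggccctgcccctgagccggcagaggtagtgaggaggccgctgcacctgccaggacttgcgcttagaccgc
Abca1, chr4:53159846-53160145, minus strand: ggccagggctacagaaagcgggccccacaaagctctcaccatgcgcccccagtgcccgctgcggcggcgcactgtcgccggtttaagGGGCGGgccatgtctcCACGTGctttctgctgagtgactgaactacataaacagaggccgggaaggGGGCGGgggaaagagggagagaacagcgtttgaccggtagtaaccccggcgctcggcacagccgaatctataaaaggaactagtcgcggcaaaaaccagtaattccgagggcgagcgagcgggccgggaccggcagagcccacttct
Hsd17b7, chr1:169969156-169969455, minus strand: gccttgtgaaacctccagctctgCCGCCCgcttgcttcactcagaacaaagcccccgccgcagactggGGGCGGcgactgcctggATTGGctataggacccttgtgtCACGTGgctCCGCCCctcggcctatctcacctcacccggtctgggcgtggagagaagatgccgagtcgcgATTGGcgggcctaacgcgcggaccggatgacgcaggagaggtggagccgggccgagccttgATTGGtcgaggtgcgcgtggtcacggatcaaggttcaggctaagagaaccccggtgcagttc
The sterol element of Hmgcs1 begins at position -137 from the start site. The Msmo1 promoter holds 3 CCAAT boxes, at -160, -96 and -55, and that of Hsd17b7 holds 3 on the other strand, at -165, -73 and -12. Abca1 has its E-box at -147 between Sp1 boxes at -163 and -97 and no CCAAT.

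All values are log2 expression as deposited, which the submitters made with RMA, a method that corrects background, equalises the arrays and combines the probes of a probe set. Means are given ± SD over n = 2 arrays, differences with the standard error (SE) of a limma fit over all 18193 genes, and adjusted p with the Benjamini-Hochberg method over all of them. Calls were made where that adjusted p was under 0.05. Each gene is read from the probe set with the highest mean. A mean under 6.57, the level below which 95% of 44 measured genes of other tissues lay, is called near background. The identity of the cells was checked first: all 9 measured NK cell markers lay above that level, and the B cell, mast cell and stromal lists had 0 members above it. Above it lay 6 of 8 neutrophil, 5 of 9 dendritic cell, 2 of 7 T cell, 2 of 4 erythroid and 1 of 4 platelet markers. The sort description of CD27-CD11b+ replicate 1 names the CD27+CD11b- gate, against its title. It was grouped by title, its Cd27 of 6.96 and Itgam of 9.93 lay beside the 6.47 and 9.44 of replicate 2, and the larger differences below that it moved by over 1.5 times are given without it as well. The arrays also divide across the subsets: 3 unnamed probe sets averaged 12.57 to 12.81 in replicate 2 of both CD27+ subsets and in CD27-CD11b+ replicate 1 (the on arrays), and 4.33 to 4.47 in the other 3 (the off arrays). The mean of 18 monocyte and macrophage markers, 14 of them above background, followed this division. In order of maturation it was 6.21, 7.06 and 6.92 on the off arrays, against 7.60, 7.96 and 7.82 on the on arrays. The neutrophil mean was 6.10, 6.53 and 6.68 against 7.43, 7.49 and 7.43, and the dendritic cell mean was 6.93, 7.16 and 7.04 against 7.37, 7.44 and 7.64. For 24 cell cycle genes the corresponding means were 9.04, 8.60 and 7.46, against 8.003, 7.58 and 7.28. In sorted bulk samples, fewer cells of a type and less RNA per cell cannot be told apart.

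Most of the programme was expressed and differed little between subsets. Above background in at least 1 subset were 25 of the 32 genes: all 5 regulators, 5 of 7 enzymes of the mevalonate branch, 7 of 9 of the squalene to cholesterol branch, all 3 sterol transport genes and 5 of 8 fatty acid genes. Near background in every subset were Mvd and Fdps of the mevalonate branch, Sqle and Cyp51 of the sterol branch, and the desaturases Scd1, Fads1 and Fads2. Between CD27+CD11b- and CD27+CD11b+ cells, and between CD27+CD11b+ and CD27-CD11b+ cells, 0 of 32 genes were called. Between the outer subsets 1 of 32 was called, the sterol demethylase Msmo1, which rose. Over all genes, 0.121% were called in the first, 0.297% in the second and 3.39% in the outer comparison, so the members' share lay near the background in each.

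**Figure D1:**
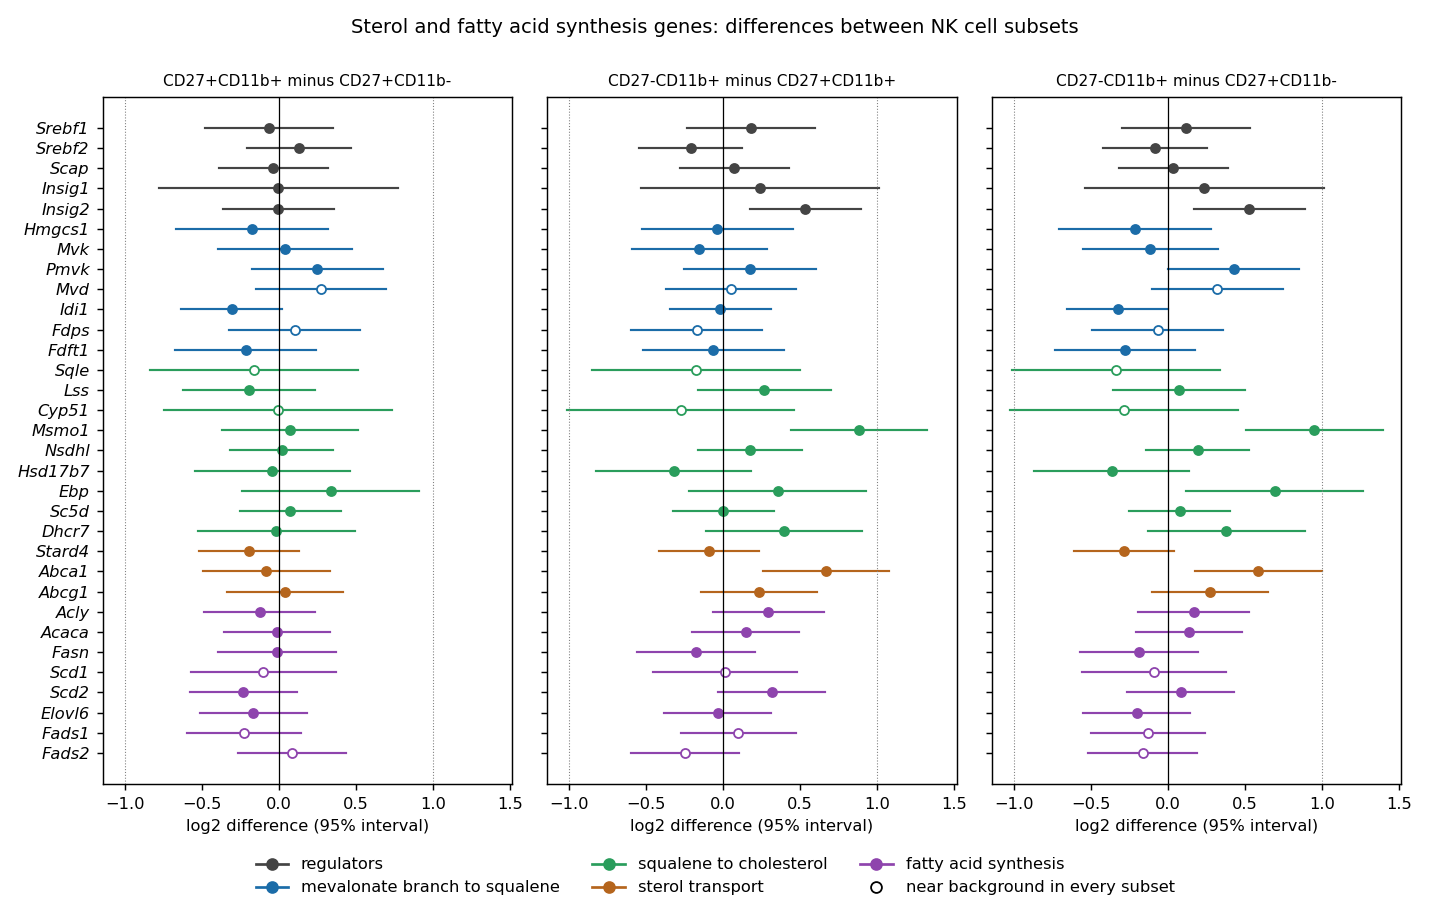
Log2 difference of each of the 32 genes in the 3 comparisons (horizontal axis, with the 95% interval of the limma fit), coloured by role, with open points for genes near background in every subset and dotted lines at a 2-fold change. All 32 intervals of the first comparison lie inside a 2-fold change either way. The points for Msmo1 in the other 2, at 0.88 and 0.95, start from a level near background. Counted from the background level to the CD27-CD11b+ mean, Msmo1 is at least 1.37-fold higher, and only its outer difference passed.

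On the probe sets used, the small differences were measured with some precision. The 95% interval lay inside a 2-fold change in either direction for 32 of 32 genes in the first comparison, 28 in the second and 27 in the outer one, against 94.9%, 91.0% and 85.9% of all genes. For the 25 members above background the counts were 25, 22 and 22, against 92.3%, 85.8% and 77.3% of genes above background. Among members above background in both subsets compared, the largest differences up and down were 1.27-fold (Ebp) and 1.24-fold (Idi1) in the first comparison, 1.59-fold (Abca1) and 1.25-fold (Hsd17b7) in the second and 1.62-fold (Ebp) and 1.29-fold (Hsd17b7) in the outer one. Msmo1 was near background in both CD27+ subsets. Counted from the background level to the mean of the CD27-CD11b+ arrays it was at least 1.37-fold higher, and only its outer difference passed. The median difference was -0.01, 0.06 and 0.05 in the 3 comparisons, beside -0.01, 0.02 and -0.01 for all genes. Among genes above background the member medians were -0.02, 0.17 and 0.08, beside 0.02, 0.15 and 0.17. The F test over the 3 subsets called 0 members at an adjusted p under 0.05, against 1.35% of all genes, and 3 at an unadjusted p under 0.05 (Msmo1, Abca1 and Insig2), against 13.6%. The difference between the 2 steps called 0 members and 1 gene of all, or 0.0055%, with 2 members at an unadjusted p under 0.05 against 3.01%. The unadjusted counts of members in the 3 comparisons were 0, 3 and 4, against 3.79%, 11.1% and 18.9% of all genes.

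The regulators come first in the pathway. Srebf1, which encodes the SREBP that favours fatty acid genes, was 9.36 ± 0.13, 9.30 ± 0.18 and 9.48 ± 0.24 in order of maturation, and Scap was 9.27 ± 0.16, 9.23 ± 0.09 and 9.30 ± 0.05. Srebf2, which encodes the SREBP that favours sterol genes, read 6.87 and 6.80 in CD27+CD11b-, 6.94 and 6.98 in CD27+CD11b+, and 6.83 and 6.67 in CD27-CD11b+. The 2 CD27+CD11b+ arrays were the highest of the 6, but the differences of 0.13 (SE 0.15) and -0.21 (SE 0.15) did not pass (limma adjusted p = 0.99996 and 0.648). The regulators thus showed 0 calls in any comparison.

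The INSIG anchors retain the SREBP complex, and their 2 genes behaved differently across arrays. Insig2 was 8.47 and 8.36 in CD27+CD11b-, 8.41 and 8.43 in CD27+CD11b+, and 9.08 and 8.81 in CD27-CD11b+. Both CD27-CD11b+ arrays lay above all 4 others. The second step differed by 0.53 (SE 0.16, 95% interval 0.17 to 0.89), which did not pass (limma adjusted p = 0.259), nor did the outer difference of 0.53 (adjusted p = 0.118). Without CD27-CD11b+ replicate 1 the second step was 0.40. Its other 2 probe sets, both above background, differed by 0.87 and 0.24 in the second step. The second step of Insig2 was 0.41 between the off arrays and 0.66 between the on arrays. Insig1, itself a well-known SREBP target, read 6.10 and 6.92 in CD27+CD11b-, 6.06 and 6.96 in CD27+CD11b+, and 6.68 and 6.81 in CD27-CD11b+. Its arrays overlapped between all subsets, and it varied more within a subset than between them, with intervals up to -0.54 to 1.01 in the second step.

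The mevalonate branch carries acetyl-CoA units to squalene. Of its 7 genes, 0 were called in any comparison, with median differences of 0.04, -0.04 and -0.11 in the first, second and outer comparison. Idi1, the isomerase that makes the activated isoprene unit, read 7.41 and 7.34 in CD27+CD11b-, 7.12 and 7.01 in CD27+CD11b+, and 7.06 and 7.03 in CD27-CD11b+. Both CD27+CD11b- arrays lay above the other 4, with differences of -0.30 (SE 0.14) in the first and -0.32 (SE 0.14) in the outer comparison (limma adjusted p = 0.99996 and 0.268). On the other Idi1 probe set, near background in every subset, the differences were -0.52 and -0.03, and the second step was 0.49. Pmvk, the phosphomevalonate kinase, went the other way, at 7.16 and 7.36, then 7.52 and 7.49, then 7.91 and 7.46. Its outer difference of 0.43 (SE 0.19) did not pass either (adjusted p = 0.265), and it was 0.20 without CD27-CD11b+ replicate 1, the array that stood highest. Between neighbouring subsets, the Pmvk arrays overlapped only in the second step.

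Hmgcs1, the synthase that commits acetyl-CoA units to the branch, was 10.09 ± 0.33, 9.91 ± 0.28 and 9.87 ± 0.14, with overlapping arrays. Its outer difference was -0.21 on this probe set. Other Hmgcs1 probe sets above background in every subset differed by 0.26 and 0.25 there, and none passed. Mvk, the mevalonate kinase, read 6.79 and 6.45, then 6.85 and 6.47, then 6.54 and 6.47, close to background throughout. Its second step of -0.16 became 0.03 without CD27+CD11b+ replicate 1. Fdft1, the squalene synthase, was 8.01 and 8.21, then 7.75 and 8.03, then 8.05 and 7.61, and differed by -0.28 (SE 0.20) between the outer subsets (limma adjusted p = 0.506). Without CD27-CD11b+ replicate 1 the difference was -0.50, and without replicate 2 it was -0.056. The other 3 Fdft1 probe sets, all near background in every subset, differed by -0.34, -0.12 and 0.37 in that comparison. Mvd, near background, was 6.07 ± 0.10, 6.35 ± 0.10 and 6.39 ± 0.31.

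The squalene to cholesterol branch held the one called gene. Msmo1, an oxygenase of sterol demethylation, read 6.06 and 6.10 in CD27+CD11b-, 6.23 and 6.08 in CD27+CD11b+, and 7.28 and 6.78 in CD27-CD11b+. The first 4 values are near background and the last 2 are above it. Msmo1 rose by 0.95 (SE 0.19, 95% interval 0.51 to 1.39) between the outer subsets, at limma adjusted p = 0.0399, against 2.24% of all genes called as higher there. Because CD27+CD11b- cells lay near background, the size is given as at least 1.37-fold higher, counted from the background level to the CD27-CD11b+ mean. The second step of 0.88 (SE 0.19) did not pass (adjusted p = 0.146), nor did the first of 0.07 (SE 0.19, adjusted p = 0.99996). Within the off and the on arrays the outer difference of Msmo1 was 0.72 and 1.18, and with the division as a block its adjusted p was 0.0176. Without CD27-CD11b+ replicate 1 the difference was 0.70 (adjusted p = 0.218). The call was also lost without any of the 4 CD27+ arrays (adjusted p = 0.0523 to 0.153) and in a fit over all 45037 probe sets, at adjusted p = 0.106. A second Msmo1 probe set, near background in all arrays, differed by 0.04.

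Ebp, the sterol isomerase, was the member with the next largest outer difference. It read 9.45 and 9.11 in CD27+CD11b-, 9.98 and 9.27 in CD27+CD11b+, and 10.10 and 9.85 in CD27-CD11b+. The outer arrays do not overlap, while CD27+CD11b+ replicate 1 lies among the CD27-CD11b+ values and replicate 2 among the CD27+CD11b- values. The outer difference of 0.69 (SE 0.25, 95% interval 0.12 to 1.27) did not pass (limma adjusted p = 0.186, and 0.0967 with the division as a block). The first step of 0.34 became -0.015 without CD27+CD11b+ replicate 1. Dhcr7, the reductase of the last step to cholesterol, read 7.25 and 7.26, then 7.15 and 7.33, then 7.97 and 7.31. Its second step of 0.40 (SE 0.22, adjusted p = 0.574) was 0.07 without CD27-CD11b+ replicate 1, the array that alone stood high.

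Hsd17b7 is a ketosteroid reductase of sterol demethylation. It read 7.17 and 7.80 in CD27+CD11b-, 7.33 and 7.56 in CD27+CD11b+, and 7.13 and 7.12 in CD27-CD11b+. Both CD27-CD11b+ arrays were the lowest of the 6, and the outer difference was -0.36 (SE 0.22, limma adjusted p = 0.423), the most negative of the 32 genes. It rested on CD27+CD11b- replicate 2: it was -0.046 without that array, -0.68 without replicate 1 of the same subset, and -0.05 and -0.67 between the off and between the on arrays. The other 3 Hsd17b7 probe sets, all near background, differed by -0.12, 0.04 and 0.06. Msmo1 and Hsd17b7 act in the same demethylation sequence with Nsdhl, which was 8.37 ± 0.06, 8.39 ± 0.06 and 8.56 ± 0.10. Lss, the cyclase that forms lanosterol, read 7.63 and 7.83, then 7.39 and 7.69, then 7.98 and 7.63, with overlapping arrays and a first step of -0.19 (SE 0.19, adjusted p = 0.99996). Sc5d, a desaturase near the end of the pathway, read 8.15 and 8.11, then 8.24 and 8.18, then 8.16 and 8.26. Its first step of 0.08 (SE 0.14) did not pass (adjusted p = 0.99996), although its CD27+CD11b+ arrays lay above both CD27+CD11b- arrays. Of the 9 genes of this branch, 1 rose and 8 did not pass between the outer subsets, with a median difference of 0.08.

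**Figure D2:**
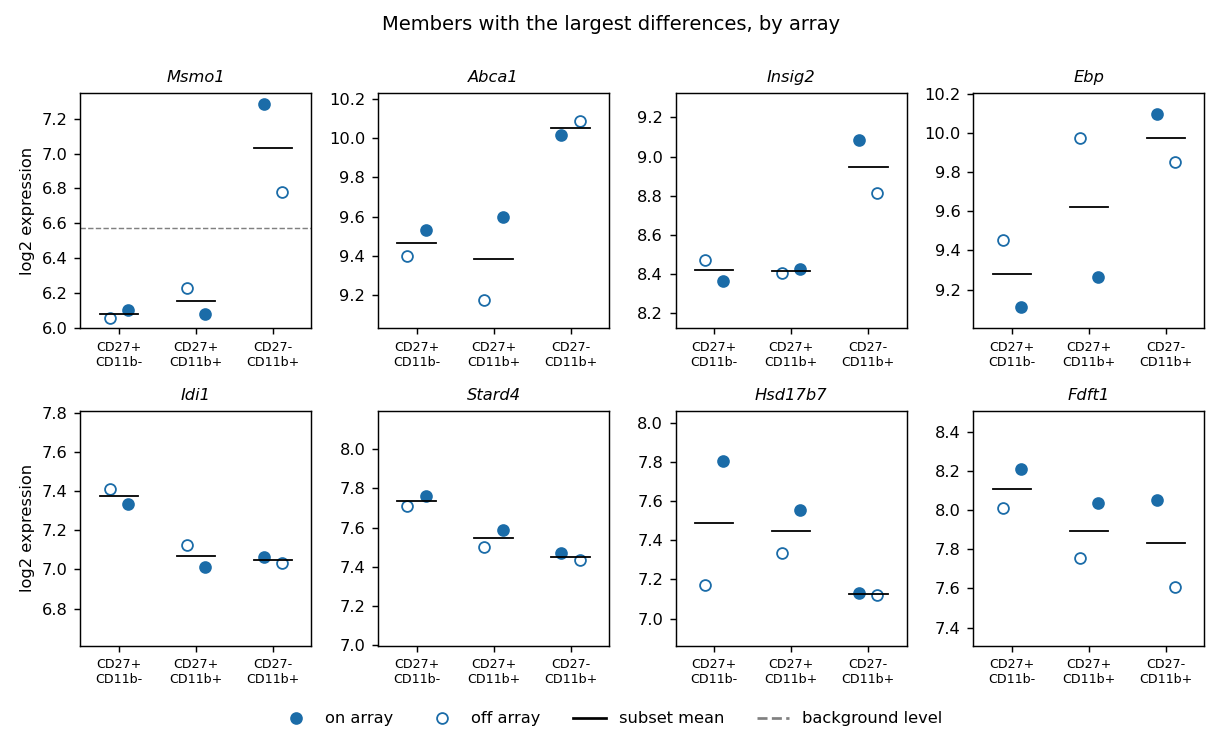
Log2 expression of 8 members in each array (filled points for on arrays, open points for off arrays, black lines for subset means, dashed line for the background level). On the probe sets used, Msmo1, Abca1 and Insig2 show both CD27-CD11b+ arrays above the other 4, and Idi1 and Stard4 show both CD27+CD11b- arrays highest. The other Stard4 probe sets do not show this order, nor does the other Idi1 probe set, which is near background.

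Sterol transport genes report the other side of sterol balance. Abca1, which exports cholesterol to lipoprotein particles, read 9.40 and 9.53 in CD27+CD11b-, 9.17 and 9.60 in CD27+CD11b+, and 10.02 and 10.09 in CD27-CD11b+. Both CD27-CD11b+ arrays lay above all others. The second step of 0.67 (SE 0.18, 95% interval 0.26 to 1.08) did not pass (limma adjusted p = 0.216, and 0.0945 with the division as a block), nor did the outer difference of 0.59 (SE 0.18, adjusted p = 0.128). Abca1 is also expressed by macrophages, and within the off and on arrays its second step was 0.91 and 0.42, while the mean of the monocyte and macrophage markers went from 7.06 to 6.92 and from 7.96 to 7.82. In the outer comparison Abca1 differed by 0.69 and 0.49 within the off and on arrays, where the marker mean went from 6.21 to 6.92 and from 7.60 to 7.82. The part of those cells in the Abca1 values was not tested. Abcg1, a second exporter, was 10.60 ± 0.01, 10.64 ± 0.16 and 10.87 ± 0.19, an outer difference of 0.27 (SE 0.16, adjusted p = 0.425) that was 0.14 without CD27-CD11b+ replicate 1. Stard4, a carrier that moves sterol between membranes inside the cell, read 7.71 and 7.76, then 7.50 and 7.59, then 7.47 and 7.43. On the probe set used, the subsets did not overlap in either step, but the outer difference of -0.28 (SE 0.14) did not pass (adjusted p = 0.324). On the other Stard4 probe sets, both above background, the arrays overlapped in both steps, with outer differences of 0.09 and -0.36.

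Fatty acid enzymes build acyl chains from acetyl-CoA, lengthen them and add double bonds. Of the 8 genes, 0 were called in any comparison, with median differences of -0.11, 0.05 and -0.11. Acly, which makes cytosolic acetyl-CoA from citrate, was 11.50 ± 0.05, 11.37 ± 0.11 and 11.66 ± 0.17. Its second step of 0.29 (SE 0.16) did not pass (limma adjusted p = 0.553), and was 0.17 without CD27-CD11b+ replicate 1. Scd2, a stearoyl-CoA desaturase, read 10.32 and 10.41, then 10.04 and 10.23, then 10.50 and 10.40, so that both CD27+CD11b+ arrays were the lowest of the 6. The steps of -0.23 (SE 0.15) and 0.32 (SE 0.15) did not pass (adjusted p = 0.99996 and 0.505). Fasn, the fatty acid synthase, read 9.18 and 9.22, then 9.05 and 9.33, then 9.13 and 8.90, an outer difference of -0.19 (95% interval -0.57 to 0.20) that was -0.30 without CD27-CD11b+ replicate 1. Acaca, the carboxylase before it, was 7.64 ± 0.02, 7.63 ± 0.15 and 7.77 ± 0.06, and Elovl6, an elongase, was 9.34 ± 0.06, 9.18 ± 0.16 and 9.14 ± 0.01.

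Subsets whose arrays did not overlap were counted among the members and among all genes. In the first comparison 4 of 32 members were higher and 6 lower without overlap, against 14.7% and 15.6% of all genes. In the second 6 were higher and 4 lower, against 22.8% and 17.1%. In the outer one 12 were higher and 6 lower, against 26.9% and 24.3%. The 12 were Insig2, Pmvk, Mvd, Msmo1, Nsdhl, Ebp, Sc5d, Dhcr7, Abca1, Abcg1, Acly and Acaca, of which 5 belong to the sterol branch. The 6 lower were Idi1, Hsd17b7, Stard4, Fasn, Elovl6 and Fads2, of which 1, Hsd17b7, belongs to that branch. Mvd and Fads2 were near background in every subset.

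Other lipid genes outside the 32 were counted from lists chosen with earlier results of these data known. Between the outer subsets, 4 of 17 measured genes of fatty acid synthesis and activation outside the members rose and 13 did not pass. Of 5 genes of the liver X receptor arm 1 rose, of 11 fatty acid oxidation genes 1 rose, and of 8 further genes of sterol synthesis and SREBP processing 0 were called. In all, 6 of these 41 genes rose and 0 fell, beside 2.24% and 1.15% of all genes called higher and lower. The share called among genes above background is not given here. Of those genes 68% had an outer difference above 0, against 49.2% of all genes. The list medians were 0.38, 0.27, 0.30 and 0.07 in that order, beside -0.01 for all genes and 0.17 for genes above background. Above background were 14 of 17, 4 of 5, 9 of 11 and 8 of 8 genes of these lists, and the last median lay below 0.17. In the first and second comparison 0 of the 41 were called.

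Acss2, which makes acetyl-CoA from acetate, read 8.18 and 8.35 in CD27+CD11b-, 8.99 and 9.18 in CD27+CD11b+, and 10.35 and 9.95 in CD27-CD11b+. The 3 subsets did not overlap and stood in order of maturation. Acss2 rose by 1.88 (SE 0.18, 95% interval 1.46 to 2.30, limma adjusted p = 0.00244), and by 1.68 without CD27-CD11b+ replicate 1 (adjusted p = 0.0290). Its steps of 0.82 and 1.06 did not pass on their own (adjusted p = 0.386 and 0.0781). Elovl7, an elongase of long-chain fatty acids, read 7.54 and 7.29, then 7.81 and 7.93, then 8.73 and 8.68, also without overlap. It rose by 1.29 (SE 0.15, adjusted p = 0.00609), and by 1.27 without CD27-CD11b+ replicate 1, at adjusted p = 0.0743.

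Mid1ip1 encodes a small protein that binds and activates acetyl-CoA carboxylase. It read 8.005 and 8.17, then 9.29 and 8.35, then 9.45 and 9.43, so that CD27+CD11b+ replicate 1 lay near the CD27-CD11b+ values and replicate 2 near the CD27+CD11b- values, as for Ebp. It rose by 1.35 (SE 0.28, limma adjusted p = 0.0418). Hacd2, a dehydratase of fatty acid elongation, read 9.47 and 9.37, then 9.71 and 9.81, then 10.34 and 10.03, and rose by 0.76 (SE 0.16, adjusted p = 0.0487). Mylip, a liver X receptor target whose product marks lipoprotein receptors for degradation, read 11.04 and 10.74, then 11.12 and 11.18, then 12.06 and 11.95. It rose by 1.11 (SE 0.16, adjusted p = 0.0126). Acadm, an acyl-CoA dehydrogenase of mitochondrial fatty acid oxidation, read 8.88 and 8.81, then 9.38 and 9.01, then 9.74 and 9.57, and rose by 0.81 (SE 0.17, adjusted p = 0.0491). Without CD27-CD11b+ replicate 1 the adjusted p was 0.242 for Mid1ip1, 0.271 for Hacd2, 0.124 for Mylip and 0.275 for Acadm, and the differences were 1.34, 0.60, 1.06 and 0.72. Of the 41 genes, 3 and 2 were called without CD27+CD11b- replicate 1 and replicate 2, and 1 and 2 without CD27-CD11b+ replicate 1 and replicate 2. After quantile normalisation 3 were called, and the differences of Mid1ip1, Hacd2 and Acadm were 1.18, 0.62 and 0.65.

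**Figure D3:**
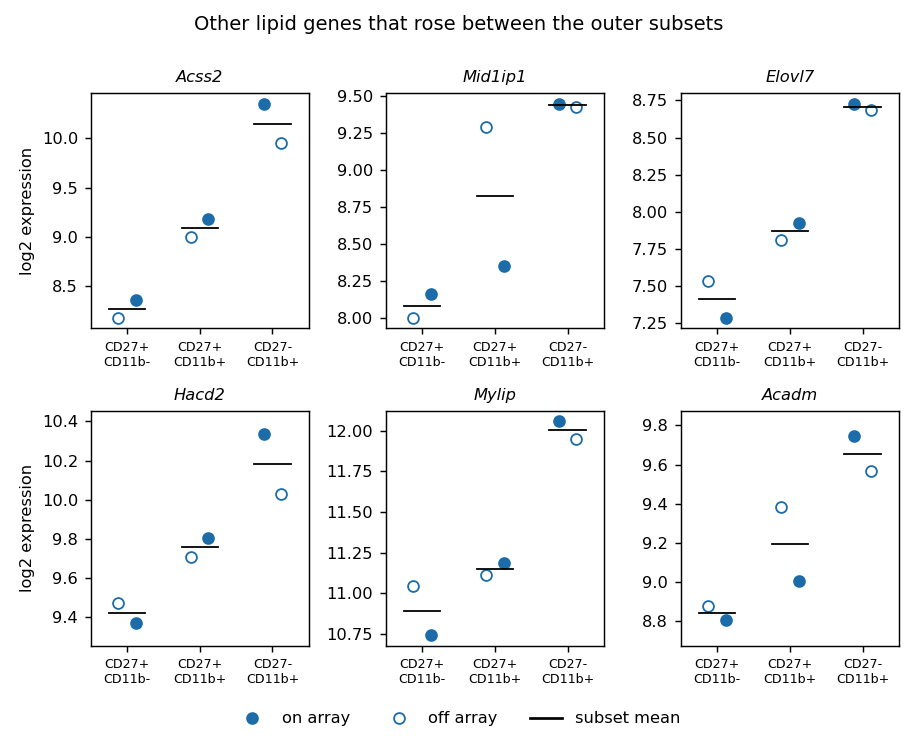
Log2 expression of the 6 lipid genes outside the members that rose between the outer subsets, in each array (filled points for on arrays, open points for off arrays, black lines for subset means). Both CD27-CD11b+ arrays lie above both CD27+CD11b- arrays in every panel, and Acss2 stands highest above its starting level, by 1.88.

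The members also differed between the on and off arrays. Since this division was read from the data, its differences are given as a description, with no test. In 14 of 32 members the on array was higher than the off array in all 3 subsets, against 20.7% of all genes, and in 2 it was lower in all 3, against 13.9%. Among genes above background the counts were 12 and 1 of 25, against 31.8% and 8.19%. The median of the mean difference was 0.13 for the members and -0.0004 for all genes, and 0.14 against 0.07 above background.

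Several of the largest of these differences were in sterol synthesis enzymes. Cyp51, the lanosterol demethylase, read 5.42, 5.65 and 5.40 in the off and 6.37, 6.13 and 5.83 in the on arrays of the subsets in order of maturation. Sqle, the squalene epoxidase, read 5.30, 4.93 and 4.68 in the off and 5.51, 5.56 and 5.46 in the on arrays. Both stayed near background on every array, so these differences are of dim signals. Above background, Hmgcs1 read 9.85, 9.71 and 9.77 in the off and 10.32, 10.11 and 9.97 in the on arrays, and Lss read 7.63, 7.39 and 7.63 against 7.83, 7.69 and 7.98. Fdft1 was higher in the on array by 0.20, 0.28 and 0.45, and Srebf1 by 0.19, 0.25 and 0.34. Insig1 was higher by 0.81 and 0.90 in the CD27+ subsets, where its off arrays read 6.10 and 6.06, under the background level. In CD27-CD11b+ Insig1 differed by -0.14. Ebp went the other way in the CD27+ subsets, with on minus off at -0.34 and -0.71, and at 0.24 in CD27-CD11b+. The mean of on minus off was also negative for the sterol enzymes Mvk (-0.22), Sc5d (-0.07), Fdps (-0.06) and Idi1 (-0.05). The monocyte and macrophage markers were higher and the cell cycle genes lower in the on array of every subset, by the values given above, and their part in these differences was not tested.

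**Figure D4:**
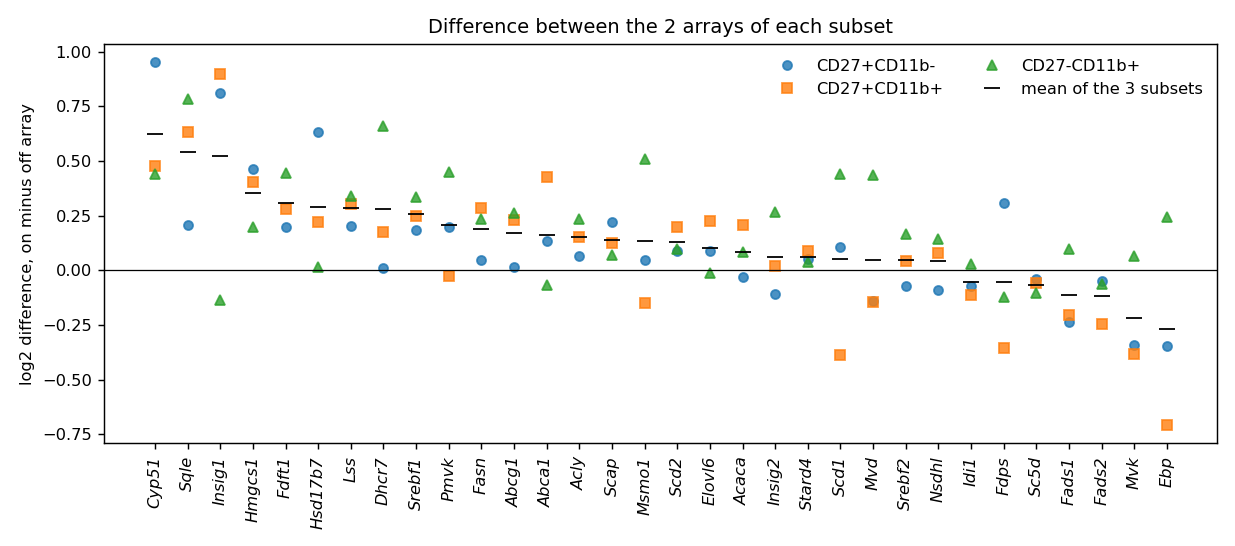
Difference between the on and the off array of each subset (vertical axis, log2) for the 32 genes, ordered by the mean of the 3 subsets, with a symbol per subset and a dash for the mean. Cyp51, Sqle and Insig1 have the highest means, and Insig1 is the one of these 3 with a subset below 0. Expression of Cyp51 and Sqle lay near background in every subset, and that of Insig1 in both CD27+ subsets.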

How the data were processed

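RNA of 6 sorted samples was measured on Affymetrix mouse arrays. The authors deposited RMA values on a log2 scale for 45101 probe sets, per the submitters' processing notes. Which RMA version and probe grouping they used is not given in the sources used here. The method equalises the arrays, so a change shared by most genes is removed, and it compresses differences of dim genes. The log2 scale was read from the values (2.60 to 14.72). After removal of 64 control probe sets, 34945 of 45037 had 1 gene symbol, 932 several and 9160 none, and the latter 2 groups were not named. Each of 18193 genes was read from its probe set with the highest mean. Probe sets with names ending in _s_at, _x_at or _a_at are called marked. An alternative fit took unmarked ones where a gene had any. The probe sets used for Msmo1, Hsd17b7, Fdft1, Acly and some other members are marked. Subsets came from the titles. A limma fit (limma 3.58.1, R 4.3.3) with 1 mean per subset had 3 residual and 4.93 prior degrees of freedom, and its script was tested on simulated data. Values in every array are given for called members and, per comparison, the 4 largest positive and 4 largest negative differences above background. The promoters shown were chosen after the values were seen. Members and lists were chosen with earlier results of these data known. The replicate number, the array division, array omission, probe set choice, low-value filter, offset, scaling, variance prior and array weights were varied. The number of arrays limits the precision.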

Additional observations from a re-analysis of the deposited data

How the results depend on the processing

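Under 17 alternatives, 0 members were called in the first and second comparison. Member medians ranged from -0.13 to 0.18 over the 3 comparisons. The outer count of 1 was kept with the replicate block (Msmo1 adjusted p = 0.0381) and became 0 with the mean of probe sets, unmarked probe sets (Msmo1 difference 0.04), 32 added to the linear values and only the 4 arrays compared, and 0 to 1 with an array left out. The replicate block changed no other member call. Same-numbered deviations correlated at 0.62 between the CD27+ subsets, where replicate 2 is the on array of both. With CD27-CD11b+, where replicate 1 is the on array, they correlated at -0.25 for CD27+CD11b- and -0.14 for CD27+CD11b+. Replicate numbers thus went together in the CD27+ subsets and did not pair arrays across all 3 subsets. The F test count of 0 became 1 with the division block and with median centring.

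Genes called numbered 22, 54 and 617 in the 3 comparisons, 58, 296 and 1480 with the division block, 0, 11 and 367 with 32 added, 11 in the first with the mean of probe sets and 12 in the first with 4 arrays. With an array left out they ranged from 4 to 30, 6 to 53 and 84 to 635. Of the other lipid genes, 3 were called in the second comparison with the division block. In the outer comparison 6 were called, 3 with 32 added, 3 with quantile normalisation, and 1 (without CD27-CD11b+ replicate 1) to 7 with an array left out. With the division block, 5 genes of fatty acid synthesis and activation rose in the outer comparison, and 1 in each other list. The additions to the main fit were Lipa (limma adjusted p = 0.0314) and Acsl3 (adjusted p = 0.00588). Acsl3 lay near background in every subset. These alternatives for the other lipid genes were chosen after seeing the data. Acss2 was called under all 17. Of 30 named differences 25 kept their sign. Fdft1 turned to 0.032 in the first comparison with the mean of probe sets, and to 0.27 in the first and 0.37 in the outer comparison with unmarked probe sets, and Hsd17b7 to 0.017 in the second with unmarked ones. With an array left out Ebp ranged from -0.015 to 0.69 in the first and Mvk from -0.35 to 0.035 in the second comparison, both turning without CD27+CD11b+ replicate 1. The cause was not tested, except that unmarked and averaged probe sets are other probes of the same genes.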

Other observations

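Probe sets of members that were not used for the gene are given here from a limma fit over all 45037 probe sets, in which 0 of the 76 member probe sets were called in any comparison. Those named were chosen after their values were seen, and none of their differences passed. A second probe set of Sc5d, near background on every array, read 4.51 and 4.69 in CD27+CD11b-, 5.04 and 4.99 in CD27+CD11b+, and 5.33 and 5.55 in CD27-CD11b+. It differed by 0.84 (SE 0.15) between the outer subsets (limma adjusted p = 0.0822), where the probe set used for Sc5d differed by 0.08. An Lss probe set, also near background on every array, read 4.11 and 4.57, then 4.10 and 4.75, then 5.55 and 5.20. Its outer difference of 1.04 (SE 0.27, limma adjusted p = 0.168) was the largest of the 76, against 0.07 for the probe set used for Lss. A dimmer Hmgcs1 probe set read 5.87 and 6.22, then 6.46 and 6.61, then 6.83 and 6.83, a difference of 0.78 (SE 0.17, limma adjusted p = 0.110). Its CD27+CD11b- mean of 6.05 is near background, so by the means it was at least 1.197-fold higher in CD27-CD11b+ cells. The probe set used for Hmgcs1 differed by -0.21, and others above background in every subset by 0.26 and 0.25. For Acly, which makes acetyl-CoA from citrate, 2 dimmer probe sets differed by 0.46 and 0.56 (adjusted p = 0.229 and 0.138), against 0.17 for the brightest. The 3 probe sets of Elovl6 differed by 0.17, -0.20 and -0.65, and by -0.042, -0.20 and -0.21 without CD27-CD11b+ replicate 1.

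Of 13 further probe sets of members that lay above background, 8, 6 and 5 had a difference of the opposite sign to the probe set used in the first, second and outer comparison, where most differences were small.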
